A study of Mus musculus with 12 samples.

Results

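The comparison described here is the interaction between Smad2/3 loss and differentiation in mouse embryonic stem (ES) cells: the change over 4 days in cells without Smad2 and Smad3, minus the change over the same 4 days in wild-type cells. It rests on 8 of the 12 RNA-seq libraries of the series, 2 in each of 4 groups, and on every gene with enough counts to be tested (18383 of the 32285 gene IDs in the count table). The groups were wild-type E14Tg2a.IV cells (WT) at day 0, before differentiation, and at day 4, as embryoid bodies formed after removal of LIF, the cytokine that holds mouse ES cells undifferentiated, and Smad2 and Smad3 double-knockout cells labelled with the same line (S23DKO) at the same days. The labels give neither the clone, the deleted exons nor whether replicates were separate cultures, so the tests rest on a spread between libraries that may be in part technical. The contrast asks which transcripts changed differently over the 4 days when both Smads were missing.

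Smad2 and Smad3 are the receptor-activated Smads of the Nodal, activin and TGF-beta branch of signalling: ligand-bound receptors phosphorylate them, and with Smad4 they enter the nucleus and act with partners such as Foxh1. In the mouse epiblast, Nodal signalling through this pair patterns the embryo and is needed for the primitive streak, from which mesoderm and definitive endoderm arise, and it is restrained by the secreted inhibitors Lefty1 and Lefty2, which it induces. The related Smads downstream of BMP ligands are Smad1, Smad5 and Smad9. Embryoid bodies are floating aggregates in which ES cells leave naive pluripotency, pass through an epiblast-like state and form an outer layer of extraembryonic endoderm.

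The promoters of 3 called genes are shown because they had the most negative fitted interaction among the called genes of the Nodal target and primitive streak lists that the RefSeq promoter table holds. Mixl1, described below, has no entry there. Lhx1 encodes a LIM homeodomain factor of the organiser, Evx1 a homeodomain factor of the posterior streak, and T (Brachyury) the T-box factor of the streak and nascent mesoderm. Each run holds the 250 bases before and the 50 bases after the RefSeq transcript start, 5′ to 3′ on the gene's own strand, in RefSeq build GRCm38.p6. Lhx1 lies on the minus strand (chr11:84525485-84525784), Evx1 on the plus strand (chr6:52313248-52313547) and T on the plus strand (chr17:8434173-8434472).
Lhx1: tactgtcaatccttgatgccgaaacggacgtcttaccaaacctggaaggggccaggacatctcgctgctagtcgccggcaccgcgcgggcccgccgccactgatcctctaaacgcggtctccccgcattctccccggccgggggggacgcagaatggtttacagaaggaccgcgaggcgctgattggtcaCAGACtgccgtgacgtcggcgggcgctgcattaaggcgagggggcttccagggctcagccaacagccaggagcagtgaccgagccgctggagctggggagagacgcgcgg
Evx1: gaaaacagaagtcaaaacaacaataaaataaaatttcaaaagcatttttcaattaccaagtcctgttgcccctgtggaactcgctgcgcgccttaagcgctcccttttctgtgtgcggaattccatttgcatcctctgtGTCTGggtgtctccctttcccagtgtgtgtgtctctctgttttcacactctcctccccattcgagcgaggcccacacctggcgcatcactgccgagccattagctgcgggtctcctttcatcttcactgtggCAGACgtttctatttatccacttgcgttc
T: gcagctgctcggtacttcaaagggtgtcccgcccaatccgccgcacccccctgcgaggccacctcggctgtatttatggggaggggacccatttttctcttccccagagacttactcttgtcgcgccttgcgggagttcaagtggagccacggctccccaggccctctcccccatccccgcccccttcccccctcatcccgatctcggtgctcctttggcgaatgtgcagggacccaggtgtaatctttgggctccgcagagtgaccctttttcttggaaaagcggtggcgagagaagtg
Capitals mark the Smad-binding core CAGAC or its reverse complement GTCTG. The core occurs 1 time in the Lhx1 run and 2 times in the Evx1 run, and these letters are not in the T run. It was present in 49.6% of the 32851 promoters of the table, so a match is common. The Foxh1 motif AATCCACA (in 0.855% of the promoters) and the T-box motif TCACACCT (in 1.28%), searched on both strands, had no match in these 3 runs. Of the called list genes with a promoter in the table, the 2 with the most positive interaction were Tie1 (no CAGAC) and Tubb3 (1 CAGAC). Lefty1 and Rhox9, with larger positive values, have no entry. The matches describe these windows and say nothing about binding.

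Total counts were 46132635 to 55806858 per library, and levels below are TMM-scaled CPM, which sets counts against the library total. Ribosomal protein genes took 14.6% and 10.7% of counts in the WT day 0 replicates and 4.90% to 6.37% in the other 6 libraries. Mitochondrial genes took 6.74% in S23DKO day 0 replicate 2 and 2.00% to 3.93% elsewhere. Y-linked Eif2s3y was at 65.3 and 65.6 CPM in WT and at 0 in S23DKO at day 0, and Xist averaged 0.935 CPM in WT and 56.3 CPM in S23DKO at day 0, so the lines differed in more than the targeted genes. At day 4, S23DKO replicate 1 had 1.38 CPM of Eif2s3y and 1.08 CPM of Ddx3y, also Y-linked, and replicate 2 had none of either. Xist averaged 8.53 CPM at WT day 4 and 97.8 CPM at S23DKO day 4. Its interaction was called lower (−2.39, adjusted p = 0.0403 by edgeR's quasi-likelihood test). What part these differences between the lines have in the results below was not tested. That includes results for X-linked genes, such as Dgkk, Atp7a, Irs4, Sox3, Rhox6 and Rhox9. Pou5f1 stood at 2156 and 2160 CPM in WT and 930 and 716 CPM in S23DKO at day 0, and Sox2, Nanog, Zfp42 and Esrrb were at 177 CPM or more in every day 0 library, so the markers of the labelled cell type were present. Summed CPM of the fibroblast markers was 31.9 to 59.2 over the 8 libraries, and that of the blood and endothelium markers 97.0 and 114 at WT day 0, 36.3 and 38.4 at WT day 4 and 95.7 to 129 in S23DKO, with 1 gene of each list at 0 in all 8 libraries.

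Gene-level counts did not show the knockout. Smad2 stood at 29.3 and 38.6 CPM at WT day 0, 96.3 and 68.7 CPM at WT day 4, 37.6 and 47.5 CPM at S23DKO day 0 and 48.0 and 46.4 CPM at S23DKO day 4. Smad3 was at 9.65 and 11.4, 47.4 and 49.99, 19.7 and 13.0, and 31.1 and 28.6 CPM in the same order. For neither gene was a S23DKO library below both WT libraries at day 0, and a count over the whole gene does not check a deletion of a few exons. The interactions were −1.13 ± 0.37 (log2, SE) for Smad2 and −1.34 ± 0.37 for Smad3, and neither passed the threshold (adjusted p = 0.082 and 0.0535, edgeR's quasi-likelihood test with Benjamini-Hochberg adjustment over all genes, the test behind every adjusted p below, n = 2 per group).

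Over 4 days, WT cells changed 8243 genes (44.8% of those tested) at an adjusted p below 0.05, 4478 upward (24.4%) and 3765 downward (20.5%). S23DKO cells changed 1480 genes (8.05%), 786 upward (4.28%) and 694 downward (3.78%). The responses come from separate libraries and can be set against each other. Of the S23DKO changes, 74.5% were also called in WT, and of the WT changes 13.4% were also called in S23DKO. These 1103 shared genes moved the same way in 1067 cases and opposite ways in 36. Across the 14105 genes with at least 1 CPM, the responses correlated with Pearson's r = 0.581 and Spearman's rho = 0.530, a description in which genes are not independent replicates and all libraries share the protocol. The gap in the number of calls depended on the processing. With the correction for exon length and GC content given below, 8647 genes were called in WT and 3768 in S23DKO.

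The interaction itself was called for 1614 genes (8.78%), lower in S23DKO for 1109 (6.03%) and higher for 505 (2.75%). Among the lower calls the median change was 2.10 (log2) in WT and 0.03 in S23DKO. WT day 4 was the highest of the 4 groups in 74.6% of them, against 27.3% of all genes tested, and WT day 0 the lowest in 78.7%, against 36.6%. Among the higher calls the median change was −2.09 in WT and −0.00 in S23DKO, and WT day 4 was the lowest group in 81.2%, against 22.5% of all genes. The call was made on the same contrast, so these shapes are a description. The changes of WT and S23DKO had opposite signs in 46.1% of the lower and 47.9% of the higher calls, against 31.6% of all genes.

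**Figure D1:**
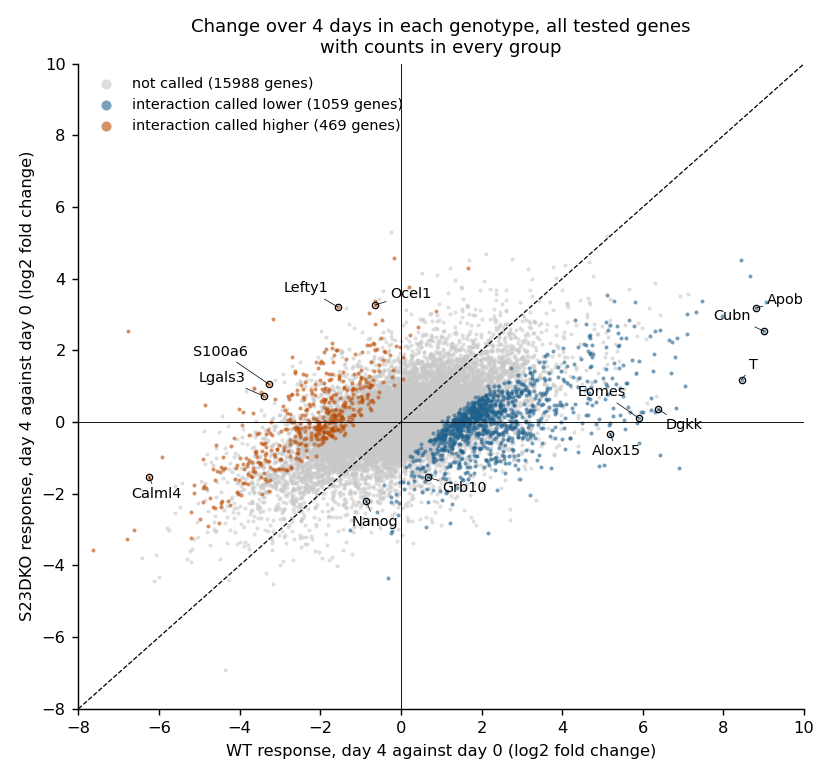
Each point is a tested gene with counts in all 4 groups, placed by its log2 fold change over 4 days in WT (x axis) and in S23DKO (y axis), with genes called lower in the interaction in blue, called higher in orange, and the dashed line where both changes are equal. Most blue points lie right of the line with S23DKO changes near 0, as for Eomes (5.90 in WT and 0.11 in S23DKO), and most orange points lie left of it.

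The calls depended on single libraries, and a kept and a lost call could differ little. Without WT day 0 replicate 1, several genes described below as kept in all 8 fits lay just under the threshold. They include Cubn, Dab2, Gata4, Mixl1, Tgfbr3, Alox15, Atp7a, Calml4, Ocel1, S100a6 and Sgk2. Gata6 and Foxq1, described as lost without that library, lay just over it. Without WT day 0 replicate 1, the library with the highest ribosomal protein share, 39 lower and 12 higher genes were called, and without WT day 0 replicate 2 there were 169 and 56. Leaving out S23DKO day 4 replicate 1 gave 85 and 30, and leaving out replicate 2 gave 89 and 35. Without WT day 4 replicate 1 the counts were 519 and 188, and without WT day 4 replicate 2 they were 2556 and 2396. They were 933 and 468 without S23DKO day 0 replicate 1, and 1287 and 648 without replicate 2. In all 8 of these fits 45 genes were called, 33 lower and 12 higher, and all 45 were also called with a correction for length and GC content.

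The interaction fell with the length of a gene's exons. Its median went from 0.76 in the shortest of 10 equal bins of genes to −0.82 in the longest, and lower calls had a median exon length of 7.21 kb against 2.19 kb for higher calls and 3.81 kb for all genes. Between the same bins the median WT change went from −1.07 to 1.02 and the median S23DKO change from −0.31 to 0.16. With offsets for the dependence of each library on length and GC, the median interactions at these ends were 0.15 and 0.07. The offsets are fitted to length and GC, so this flattening follows from the correction itself. The source of the trend was not tested. The split then went from 1109 lower and 505 higher calls (31.3% higher) to 971 lower and 1097 higher (53.05% higher). Of the original calls, 671 lower and 357 higher genes were kept, and 0 were called in the opposite direction.

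**Figure D2:**
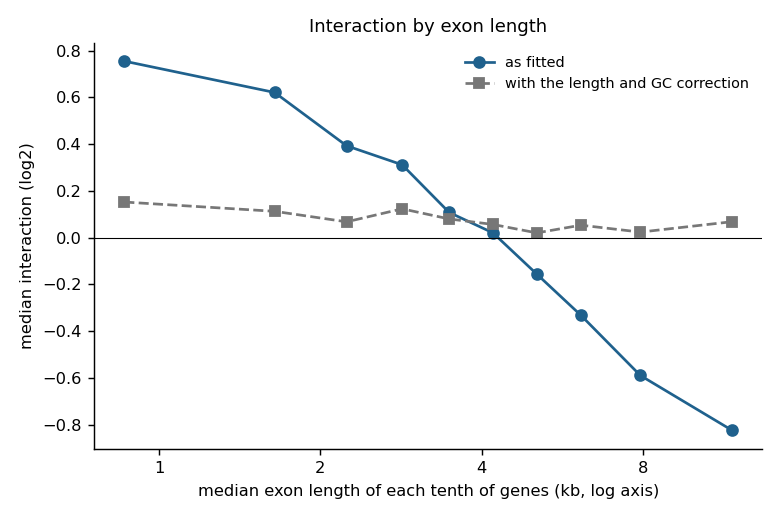
Median interaction (log2, y axis) of each of 10 equal bins of tested genes against its median exon length in kb (x axis, log scale), as fitted (solid line) and with the length and GC correction (dashed line). The fitted medians run from 0.76 to −0.82 and the corrected ones stay between 0.02 and 0.15, which follows from offsets fitted to length and GC.

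Genes of the primitive streak, the structure through which epiblast cells leave to form mesoderm and endoderm, were the list with the most negative median interaction. Of 18 tested, 10 were called lower, against a background of 6.03%, and 0 higher. No member was higher at an unadjusted p below 0.05 in edgeR either, nor called higher by DESeq2 or by limma on FPKM. The median interaction was −3.29, with genes that had a group at 0 counts set to a floor of 3 counts, against −0.02 for all genes. The median exon length of the list was 2.54 kb, below that of all genes. In WT 11 members rose, in S23DKO 1, and the median changes were 2.98 and −0.39.

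Eomes, a T-box factor needed for definitive endoderm and for cells to leave the epiblast (chr9:118478212-118486132, mm10), was at 3.94 and 4.22 CPM at WT day 0 and rose to 248 and 240 CPM at WT day 4. In S23DKO it was at 6.93 and 5.08 CPM at day 0 and 7.11 and 5.89 CPM at day 4. The S23DKO days overlapped, and all 4 S23DKO libraries stood far below WT day 4. Its interaction was −5.79 ± 0.35 (adjusted p = 0.000732). T (chr17:8434423-8442496) was at 0.430 and 0.215 CPM at WT day 0 and 102 and 123 CPM at WT day 4, and at 0.175, 0.103, 0.279 and 0.364 CPM in the S23DKO libraries of days 0 and 4 (interaction −7.27 ± 0.67, adjusted p = 0.00493). Mixl1, a homeobox gene of the streak and early mesendoderm, rose from 0.406 and 0.495 CPM to 56.4 and 51.5 CPM in WT and was at 0.136 and 0.165 CPM, then 0.115 and 0 CPM, in S23DKO (interaction −8.19 ± 0.97, adjusted p = 0.00677). For T and Mixl1, every S23DKO library was below 0.5 CPM and both WT day 4 libraries were above 50 CPM.

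Lhx1 had no counts in either WT day 0 library and 45.1 and 55.5 CPM at WT day 4, at least 1478-fold higher against the floor of 3 counts over the group. In S23DKO it was at 0.117 and 0.165 CPM at day 0 and 0.214 and 0.164 CPM at day 4, and the change was at least 1089-fold lower than in WT (adjusted p = 0.00138). Evx1 likewise had no counts at WT day 0 and 5.87 and 12.3 CPM at WT day 4, at least 266-fold higher, against 0.253 and 0.0617 CPM, then 0.361 and 0.182 CPM, in S23DKO (adjusted p = 0.0127). Both genes had the pattern of Mixl1, with a level below 0.5 CPM in all libraries but those of WT day 4.

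The ligands Fgf8 and Wnt3 and the factor Gsc also had WT day 4 as the highest group. Fgf8, a growth factor secreted by the streak, was at 0.382 and 0.861 CPM at WT day 0, 20.6 and 71.8 CPM at WT day 4 and 0.136 to 0.247 CPM in the 4 S23DKO libraries (interaction −5.86 ± 1.03, adjusted p = 0.017). Wnt3, a Wnt ligand needed for streak formation, rose from 0.310 and 0.818 CPM to 10.2 and 17.5 CPM in WT and was at 0.545 to 1.13 CPM in S23DKO (interaction −4.07 ± 0.71, adjusted p = 0.0166). Gsc, an organiser homeobox gene and Nodal target, was at 1.03 and 1.10 CPM at WT day 0 and 2.95 and 16.5 CPM at WT day 4, where the replicates differed widely, and at 0.128 to 0.837 CPM in S23DKO (interaction −5.22 ± 1.06, adjusted p = 0.0249). Chrd, a secreted BMP inhibitor of the organiser, and Sp8, a zinc-finger factor, were also called lower (−2.62 and −2.86).

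The list also held genes that were not called. Fgf4, an ES cell growth factor, fell in both genotypes, from a mean of 335 to 52.5 CPM in WT and from 285 to 58.8 CPM in S23DKO, and its interaction of 0.40 ± 0.28 was not called. Mesp1, an early mesoderm factor, averaged 0.326 and 2.251 CPM at WT days 0 and 4 and 0.0486 and 0 CPM in S23DKO, and its interaction had an adjusted p of 0.0755. The mean of every group was under 2 CPM for Tbx6 and Cdx1.

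Eomes, T, Mixl1 and Lhx1 kept their calls in all 8 fits that left out 1 library. Evx1 lost its call without WT day 0 replicate 1 (adjusted p = 0.0672). Wnt3 lost it without that library (0.091) or either S23DKO day 4 library (0.0708 and 0.0758), and Fgf8 without those 3 (0.09, 0.0602 and 0.0631) or S23DKO day 0 replicate 2 (0.0549). Gsc lost it without either WT day 0 library (0.125 and 0.0771) or either S23DKO day 4 library (0.082 and 0.0986). Chrd was called in 3 of the 8 fits and Sp8 in 1, with the largest adjusted p of 0.171 and 0.166. The list held 4 lower calls without WT day 0 replicate 1, and with the length and GC correction it held 12.

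**Figure D3:**
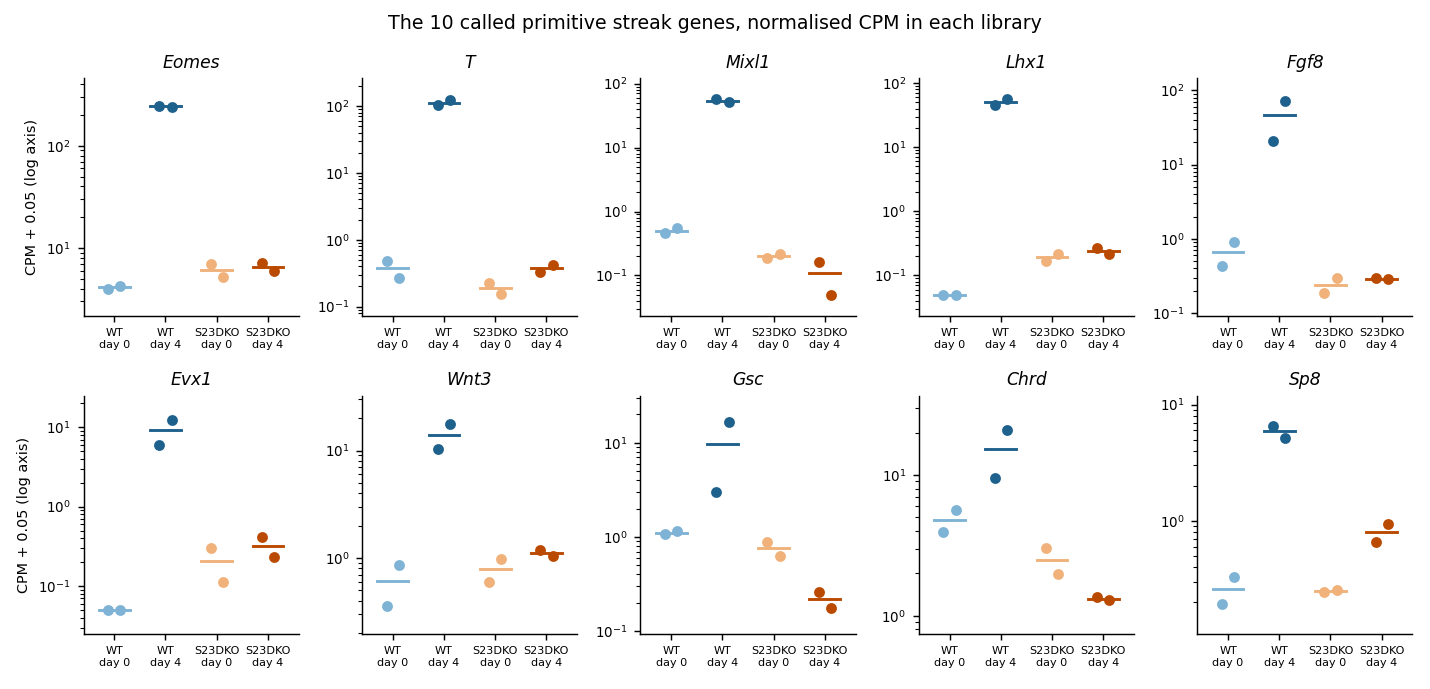
Normalised CPM plus 0.05 (y axis, log scale) of the 10 called primitive streak genes in each library, with 2 points and a bar at their mean for each group. WT day 4 is the highest group for all 10 genes, and the S23DKO days lie near each other at low levels for most, as for Eomes at 5.08 to 7.11 CPM.

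Definitive endoderm genes had 4 lower calls and 1 higher among 12 tested (median interaction −1.35). The background for this and every later list is the 6.03% lower and 2.75% higher of all genes. Foxa2, a pioneer factor of endoderm and node, had no counts at WT day 0 and 30.4 and 44.9 CPM at WT day 4, at least 1104-fold higher. In S23DKO it rose from 0.214 and 0.473 CPM to 3.02 and 1.08 CPM, and the change was at least 179-fold lower than in WT (adjusted p = 0.00937). Both S23DKO days thus lay between the WT days. Foxa1, its paralogue, went from 0.0955 and 0.129 CPM to 2.97 and 3.11 CPM in WT and was at 0.364 to 0.7005 CPM in S23DKO (−5.04 ± 0.70). Krt19, a keratin of simple epithelia that is not specific to endoderm, was the higher call, averaging 41.1 and 31.4 CPM in WT and 108 and 417 CPM in S23DKO at days 0 and 4 (2.33, adjusted p = 0.0452). Cxcr4, a chemokine receptor of definitive endoderm, had nearly equal levels in the genotypes, averaging 0.768 and 5.99 CPM in WT and 0.570 and 5.87 CPM in S23DKO (0.40, not called). None of the list was called in edgeR without WT day 0 replicate 1: Foxa2 was at an adjusted p of 0.0511, Gata6 at 0.0511, Foxa1 at 0.0728 and Krt19 at 0.175.

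Genes of visceral and other extraembryonic endoderm, the layer that covers the embryoid body and takes up and secretes nutrients, had 10 lower calls and 1 higher among 26 tested (median interaction −1.93 with the floor). Here both genotypes moved the same way: 20 genes rose in WT and 14 in S23DKO, with median changes of 4.87 and 2.01. Cubn, an endocytic receptor of this layer, rose from 0.525 and 0.753 CPM to 370 and 295 CPM in WT and from 4.49 and 12.7 CPM to 64.6 and 34.8 CPM in S23DKO (interaction −6.47 ± 0.73, adjusted p = 0.00595). The S23DKO libraries lay above WT at day 0 and below it at day 4.

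Apob, the structural protein of secreted lipoproteins, went from 0.310 and 0.495 CPM to 218 and 145 CPM in WT and from 0.720 and 0.206 CPM to 5.04 and 3.46 CPM in S23DKO (−5.62 ± 0.73, adjusted p = 0.00771). Dab2, an endocytic adaptor, averaged 2.45 and 247 CPM in WT and 10.7 and 52.5 CPM in S23DKO (−4.36 ± 0.50). The transcription factors that set up this lineage stood higher in S23DKO than in WT at day 0. Gata6 was at 0.406 and 0.344 CPM in WT and 3.35 and 6.46 CPM in S23DKO at day 0, and at 17.7 and 18.9 CPM and 12.2 and 8.75 CPM at day 4 (−4.51 ± 0.54, adjusted p = 0.00677). Gata4 averaged 1.05 and 34.2 CPM in WT and 7.03 and 16.5 CPM in S23DKO (−3.79). Foxq1, Sox7, Hnf4a, Apoa1 and Lrp2 were the other lower calls.

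Rhox5, a homeobox gene of extraembryonic lineages, was the higher call (1.17), and it was not called with the length and GC correction (adjusted p = 0.16). Ttr, Apoa4, Fgb and S100g had no counts at day 0 in either genotype, and their fitted interactions had no usable estimate (adjusted p = 0.9999). Ttr, a carrier protein made by visceral endoderm, averaged 17.9 CPM at WT day 4 and 5.38 CPM at S23DKO day 4, and the apolipoprotein Apoa4 15.2 and 3.51 CPM. Genes with 2 or more groups at 0 numbered 228 of those tested, and 1 was called.

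Cubn, Dab2 and Gata4 kept their calls in all 8 fits without 1 library, but lay just under the threshold without WT day 0 replicate 1. Apob, Gata6 and Foxq1 lost theirs without WT day 0 replicate 1 (adjusted p = 0.0574, 0.0511 and 0.0519) and kept them in the other 7. Without that library the visceral endoderm list held 3 lower calls, and with the length and GC correction it held 10. In bulk RNA, fewer cells of a type and less RNA per cell cannot be told apart, which holds for every lineage list here.

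Basement membrane genes, products of the same outer layer, had 1 lower call among 15 (median −0.25), against 4 lower with the length and GC correction and 3 by DESeq2. Col4a1, a collagen IV chain, was at 15.5 and 21.1 CPM at WT day 0, 171 and 400 CPM at WT day 4, 154 and 217 CPM at S23DKO day 0 and 569 and 429 CPM at S23DKO day 4 (−2.54 ± 0.55, adjusted p = 0.0292). S23DKO began near the WT day 4 level and ended above it. The call was lost without either WT day 0 library (0.149 and 0.0729) or either S23DKO day 4 library (0.084 and 0.11). Hspg2, which encodes the proteoglycan perlecan, had an interaction of −0.11 ± 0.71.

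Mesoderm genes had 5 lower calls and 1 higher among 20 tested (median −1.03). Pdgfra, a receptor of paraxial mesoderm and extraembryonic endoderm, rose from 0.239 and 0.560 CPM to 34.7 and 28.1 CPM in WT and from 4.71 and 8.15 CPM to 27.2 and 20.97 CPM in S23DKO (−4.37 ± 0.58, adjusted p = 0.00807). Its genotypes lay close together at day 4 and apart at day 0. Pcdh8, a protocadherin of streak and paraxial mesoderm, had the Eomes pattern, at 0.334 and 0.323 CPM, then 5.85 and 10.2 CPM, in WT and 0.247 to 0.364 CPM in S23DKO (−4.39 ± 0.63, adjusted p = 0.00977). Rspo3, a secreted enhancer of Wnt signals, was at 0.119 and 0.151 CPM, then 9.22 and 6.63 CPM, in WT and at 0.156 and 0 CPM, then 0.0985 and 0.0547 CPM, in S23DKO (−5.88 ± 1.31, adjusted p = 0.0321). Its levels outside WT day 4 overlapped. Lmo2 and Kdr, of the blood and vessel lineage, were also called lower (−3.32 and −2.56), and Aldh1a2, an enzyme that makes retinoic acid, higher (2.57).

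No mesoderm gene was called in edgeR without WT day 0 replicate 1 (Pdgfra 0.0553, Pcdh8 0.0719, Rspo3 0.136), and Pcdh8 also lost its call without S23DKO day 4 replicate 1 (0.0514). Rspo3 had counts in 1 of the S23DKO day 0 libraries, replicate 1, and without it its adjusted p was 0.842. Kdr was not called with the length and GC correction (0.0617). Cdh11, a mesenchymal cadherin from the list of epithelial to mesenchymal transition genes, was at 0.669 and 0.474 CPM at WT day 0, 23.5 and 18.3 CPM at WT day 4 and 0.476 to 0.620 CPM in S23DKO (−5.22 ± 0.49, adjusted p = 0.00497). It kept its call in all 8 fits.

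Nodal and activin targets did not move as a block: of 14 tested, 4 were called lower and 2 higher (median −1.04). Fst, an inhibitor that binds activin, rose from 1.86 and 2.346 CPM to 117 and 86.9 CPM in WT and from 3.68 and 1.502 CPM to 12.8 and 13.7 CPM in S23DKO (−3.24 ± 0.55, adjusted p = 0.0151). Skil, a nuclear repressor of Smad activity, went from 74.5 and 65.2 CPM to 410 and 276 CPM in WT and was at 98.3 to 112 CPM in the S23DKO libraries (−2.20 ± 0.33, adjusted p = 0.0114). For Fst and Skil the day 0 levels were within a few fold of each other and the day 4 levels did not overlap. Gsc and Ltbp1, which encodes a TGF-beta-binding matrix protein, were the other lower calls.

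Lefty1, the feedback inhibitor of Nodal, was called higher although its level was far below WT in every S23DKO library. It fell from 225 and 224 CPM to 41.1 and 111 CPM in WT, and was at 0.0584 and 0.0617 CPM, then 0.887 and 0.255 CPM, in S23DKO (interaction 4.78 ± 1.01, adjusted p = 0.0278). No S23DKO library reached 1 CPM, and the S23DKO change alone was not called (3.21 ± 0.89, adjusted p = 0.0575). Lefty2 averaged 157 and 98.7 CPM in WT and 0.305 and 1.26 CPM in S23DKO (2.72, not called). Nodal itself averaged 100 and 69.8 CPM in WT and 42.1 and 11.1 CPM in S23DKO (−1.40, not called). Cer1, a secreted Nodal inhibitor, had no counts at day 0 in either genotype and averaged 29.2 CPM at WT day 4 and 0.0182 CPM at S23DKO day 4, and its fitted interaction had no usable estimate (adjusted p = 0.9999).

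Calls among the Nodal targets rested on several libraries. Without WT day 0 replicate 1 none was called in edgeR, with adjusted p-values of 0.11 for Lefty1, 0.102 for Fst, 0.0728 for Skil and 0.125 for Gsc. Lefty1 also lost its call without WT day 0 replicate 2 (0.0698), S23DKO day 0 replicate 1 (0.0598) or replicate 2 (0.0502), or S23DKO day 4 replicate 1 (0.108). Fst and Skil lost theirs without WT day 0 replicate 2 (0.0569 and 0.0538), S23DKO day 4 replicate 1 (0.0736 and 0.0653) or replicate 2 (0.0688 and 0.0778). Ltbp1 was called in 4 of the 8 fits, with the largest adjusted p of 0.153.

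Ligands of the TGF-beta superfamily and their inhibitors had 3 lower and 2 higher calls among 19 (median 0.65), the lower calls being Fst, Chrd and Bmp2. Bmp2, a BMP ligand made by visceral endoderm, rose from 0.119 and 0.0646 CPM to 8.21 and 7.95 CPM in WT and from 0.331 and 0.514 CPM to 2.15 and 2.86 CPM in S23DKO (−3.87 ± 0.62, adjusted p = 0.0133). Bmp8b, a BMP ligand of the extraembryonic ectoderm, was at 1.70 and 2.58 CPM at WT day 0 and 1.39 and 1.66 CPM at WT day 4, and rose from 2.55 and 2.84 CPM to 12.5 and 14.9 CPM in S23DKO (2.83 ± 0.46, adjusted p = 0.0133). Only S23DKO day 4 stood apart for Bmp8b among these 8 libraries. Bmp2 and Bmp8b lost their calls without WT day 0 replicate 1 (0.0737 and 0.0557), WT day 0 replicate 2 (0.0635 and 0.059), S23DKO day 4 replicate 1 (0.0694 and 0.0602) or replicate 2 (0.0582 and 0.0778).

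Among 13 receptors 3 were called lower (median −1.25). Tgfbr3, the co-receptor betaglycan, rose from 1.07 and 1.25 CPM to 47.0 and 43.1 CPM in WT and from 6.34 and 9.73 CPM to 26.9 and 23.9 CPM in S23DKO (−3.61 ± 0.40, adjusted p = 0.00595), and kept its call in all 8 fits. Acvr1, a type I receptor for BMPs (−1.46 ± 0.38), and Tgfbr1, the type I receptor of TGF-beta (−1.49 ± 0.40), were called in 1 of the 8 fits each, with the largest adjusted p of 0.222 and 0.208.

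Among 14 Smads and partners, Skil, Trim33, Smad1 and Smad5 were called lower and Drap1, a repressor that limits Nodal responses, higher (median −0.96). Smad1, which carries BMP signals, was at 13.8 and 18.1 CPM, then 31.9 and 32.6 CPM, in WT and 20.02 and 15.8 CPM, then 13.2 and 12.7 CPM, in S23DKO (−1.48 ± 0.35, adjusted p = 0.0371). It rose in WT, while its S23DKO change was not called. Without WT day 0 replicate 1 none of the 5 was called in edgeR (Smad1 0.195, Trim33 0.157, Drap1 0.196). Smad5, Trim33 and Drap1 were also not called with the length and GC correction (0.113, 0.0998 and 0.333).

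BMP target genes, read out by the other Smad branch, had 2 lower calls among 15 and a median of −0.01, close to that of all genes. The calls were Msx1 and Msx2, homeobox genes that BMP signals induce. Msx2 rose from 0.430 and 0.495 CPM to 2.49 and 2.78 CPM in WT and was at 5.70 and 7.96 CPM, then 11.6 and 11.6 CPM, in S23DKO (−1.74 ± 0.44, adjusted p = 0.0433), above WT at both days. Msx1 was at 0.239 and 0.431 CPM, then 5.70 and 11.9 CPM, in WT and 1.01 and 0.411 CPM, then 2.05 and 2.10 CPM, in S23DKO (−3.16 ± 0.77, adjusted p = 0.0404). Id1, Id2 and Id3, direct BMP targets, had interactions of 0.61, −0.01 and −0.14 that were not called. Msx1 was called in 3 and Msx2 in 2 of the 8 leave-out fits, with the largest adjusted p without WT day 0 replicate 1 (0.184 and 0.203).

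Naive pluripotency genes left their day 0 level in both genotypes. All 18 fell in WT and 11 fell in S23DKO, with median changes of −2.47 and −1.72, and the interaction was called for Nanog (lower) and Dppa3 (higher). With the length and GC correction 4 were called higher, and 8 were in edgeR without S23DKO day 0 replicate 1, against 0 to 2 without any other library. Zfp42, a marker of naive ES cells, was at 443 and 486 CPM, then 61.6 and 58.8 CPM, in WT and 550 and 177 CPM, then 121 and 94.9 CPM, in S23DKO (1.19 ± 0.60, not called). Klf4, a naive factor held up by LIF, was at 156 and 204 CPM, then 7.75 and 12.2 CPM, in WT and 358 and 83.1 CPM, then 41.3 and 36.5 CPM, in S23DKO (1.66 ± 0.77, not called). The S23DKO day 0 replicates differed widely for Zfp42 and Klf4.

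Nanog, a pluripotency factor of naive cells and of the posterior epiblast, had the opposite sign to most of the naive genes, of which 16 of 18 had a positive interaction. It fell from 478 and 493 CPM to 288 and 244 CPM in WT and from 725 and 641 CPM to 163 and 136 CPM in S23DKO (−1.32 ± 0.29, adjusted p = 0.0292). S23DKO was above WT at day 0 and below it at day 4, with no overlap at either day. The call was lost without either WT day 0 library (0.151 and 0.0906) or either S23DKO day 4 library (0.121 and 0.154). Dppa3 was called in 1 of the 8 fits (largest adjusted p = 0.223). Of 14 pluripotency genes common to the naive and primed states, Rif1 and Zfp281 were called lower (list median −0.04). Pou5f1 fell by 1.70 ± 0.33 in WT and by 2.42 ± 0.34 in S23DKO on the log2 scale, and its interaction of −0.72 ± 0.46 was not called. With the length and GC correction it was −1.55 and was called (adjusted p = 0.00868).

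Formative and primed epiblast genes, which mark the state after naive pluripotency, had 7 lower calls among 16 tested and 0 higher (median −1.95), with 0 higher also at an unadjusted p below 0.05 in edgeR and by DESeq2 and limma. The median change was 1.499 in WT and −0.62 in S23DKO. Dnmt3b, a de novo DNA methyltransferase of the epiblast, averaged 242 and 1469 CPM in WT and 240 and 219 CPM in S23DKO (−2.73 ± 0.44, adjusted p = 0.0133). Fgf5, the classical epiblast marker, rose from 1.05 and 0.947 CPM to 188 and 166 CPM in WT and was at 0.525 and 0 CPM, then 2.76 and 2.79 CPM, in S23DKO (−4.10 ± 1.06, adjusted p = 0.0466). Cdh2, which encodes N-cadherin, rose from 2.34 and 3.36 CPM to 56.6 and 53.3 CPM in WT and was at 1.42 to 4.52 CPM in S23DKO (−3.99 ± 0.71, adjusted p = 0.0173). The S23DKO libraries were below 5 CPM for Fgf5 and Cdh2, and near the WT day 0 level for Dnmt3b. Within S23DKO, the rise of Fgf5 was itself called in edgeR (3.37 ± 0.77, adjusted p = 0.0318), and the change of Cdh2 was not (0.27 ± 0.49).

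Zic2 and Sox3, epiblast and neural plate factors, and Sall2 and Fgf15 were also called lower. Otx2, an early formative factor, averaged 52.3 and 255 CPM in WT and 37.7 and 68.3 CPM in S23DKO and was not called (−1.43). No formative gene was called in edgeR without WT day 0 replicate 1 (Dnmt3b 0.091, Cdh2 0.11, Fgf5 0.175). Fgf5 had counts in 1 S23DKO day 0 library, replicate 1, and without that library its estimate changed sign to 2.68 (adjusted p = 0.396). Zic2 and Sox3 were each called in 2 of the 8 fits.

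Wnt targets had 3 lower calls among 14 (median −1.33): T, Wnt3 and Dkk1, a secreted Wnt inhibitor of anterior endoderm and mesendoderm. Dkk1 was at 0 and 0.0431 CPM at WT day 0, 9.90 and 10.2 CPM at WT day 4, and 0.311 and 0.267 CPM, then 4.34 and 5.59 CPM, in S23DKO (−4.56 ± 0.82, adjusted p = 0.0182). The WT ratio of 443 rests on 2 counts at day 0 and has a counting interval of 122 to 3661 (95%, counting error only). Axin2, a feedback inhibitor induced by Wnt signals, averaged 4.66 and 41.3 CPM in WT and 6.36 and 11.7 CPM in S23DKO (−2.27, not called). Early neural genes had 1 lower call, the intermediate filament Nes (−1.30 ± 0.32), and 1 higher, the neuronal tubulin Tubb3 (3.25 ± 0.86), among 18 (median −0.21). Without WT day 0 replicate 1, Dkk1 (0.0939), Nes (0.201) and Tubb3 (0.153) were not called, and in all they were called in 5, 2 and 2 of the 8 leave-out fits.

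**Figure D4:**
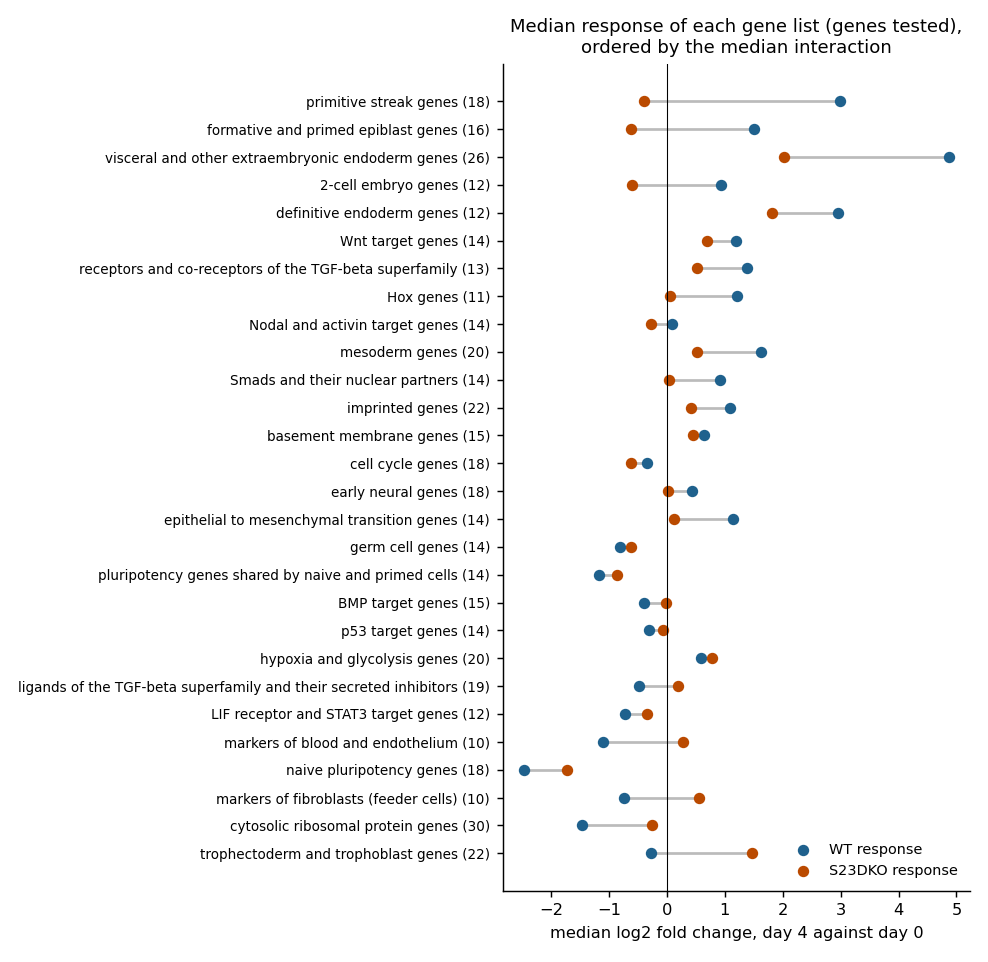
Median log2 fold change over 4 days of each gene list in WT (blue) and S23DKO (orange), with groups at 0 counts set to a floor of 3 counts, ordered by the median interaction and with the number of genes tested in parentheses. Primitive streak genes have medians of 2.98 and −0.39, and trophoblast genes −0.27 and 1.47.

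Trophectoderm and trophoblast genes, of the lineage that forms the placenta, were the list with the most positive median (1.44). Of 22 tested, 6 were called higher, against a background of 2.75%, and 0 lower, where edgeR gave 1 at an unadjusted p below 0.05, DESeq2 1 and limma 0. In S23DKO 10 rose and 0 fell, and in WT 6 rose and 6 fell. Gata2, a factor of trophoblast giant cells, was at 2.44 and 1.85 CPM, then 0.678 and 1.51 CPM, in WT and rose from 34.5 and 31.2 CPM to 119 and 137 CPM in S23DKO (2.93 ± 0.49, adjusted p = 0.0144). Krt7, a trophoblast keratin, was at 15.6 and 14.5 CPM, then 4.62 and 9.85 CPM, in WT and rose from 57.6 and 93.1 CPM to 196 and 196 CPM in S23DKO (2.44 ± 0.51, adjusted p = 0.0265). For Gata2 and Krt7 every S23DKO library was above every WT library, at day 0 as well as at day 4.

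Tfap2c, a trophectoderm factor, was among the 36 genes that changed in opposite directions, averaging 57.8 and 28.8 CPM in WT and 99.1 and 192 CPM in S23DKO (1.96, adjusted p = 0.0131), and so was Krt7. Rhox9, an X-linked homeobox gene of the placenta, was at 7.69 and 5.17 CPM, then 1.03 and 1.35 CPM, in WT and 42.8 and 91.4 CPM, then 146 and 196 CPM, in S23DKO (3.78 ± 0.55, adjusted p = 0.0108). Rhox6, its close copy, had an interaction of 3.19 ± 0.59, and how reads were shared between the copies is not given in the sources used here. Esx1, another placental homeobox gene, was the last call (2.11).

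Cdx2 and Elf5, factors that define trophoblast stem cells, averaged 2.71 CPM or less in every group and were not called. Hand1, a giant cell factor, averaged 0.437 and 1.26 CPM in WT and 7.73 and 66.9 CPM in S23DKO, also without a called interaction (1.597). Tpbpa and Prl3d1, markers of spongiotrophoblast and giant cells, had no counts in WT and averaged 2.14 and 4.06 CPM at S23DKO day 4. Their fitted interactions had no usable estimate either (adjusted p = 0.9999).

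Rhox9 was lost without WT day 0 replicate 1 (0.0653) and kept in the other 7 fits, and without that library no trophoblast gene was called in edgeR. Gata2 was lost without it (0.0918) or either S23DKO day 4 library (0.0577 and 0.0652), and Krt7 without either WT day 0 library (0.124 and 0.0734) or either S23DKO day 4 library (0.0959 and 0.0972). Tfap2c, Esx1 and Rhox6 were called in 4 of the 8 fits each. With the length and GC correction 6 trophoblast genes were called higher.

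**Figure D5:**
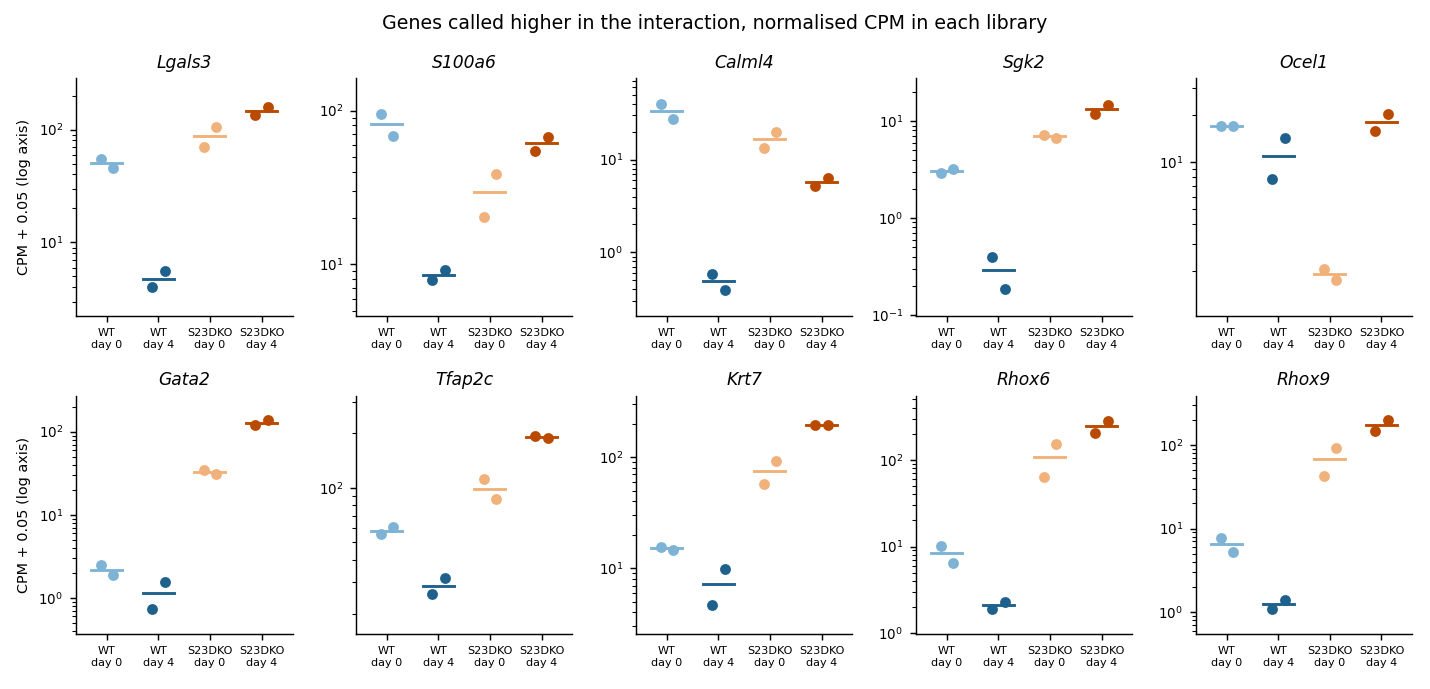
Normalised CPM plus 0.05 (y axis, log scale) of 10 genes called higher in the interaction, including 5 of the 6 called trophoblast genes (Gata2, Tfap2c, Krt7, Rhox6 and Rhox9), in each library, with 2 points and a bar at their mean for each group. WT day 4 is the lowest group for all but Ocel1, whose lowest level is S23DKO day 0 at 2.02 and 1.71 CPM.

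Outside the lists, the largest lower estimates among genes with at least 10 counts in every group and at least 5 CPM in the highest fell into different shapes. Dgkk, a diacylglycerol kinase, was at 0.812 and 0.560 CPM, then 65.1 and 48.9 CPM, in WT and 1.69 to 2.53 CPM in S23DKO (−6.02 ± 0.43, adjusted p = 0.00138). Alox15, a lipoxygenase, rose from 0.597 and 0.667 CPM to 21.2 and 25.3 CPM in WT and was at 0.555 to 0.973 CPM in S23DKO (−5.52 ± 0.51, adjusted p = 0.00493). Irs4, an insulin receptor substrate, and Magel2, an imprinted gene, were at 40.1 CPM or more and 16.5 CPM or more at WT day 4, and neither was above 1.28 CPM in any S23DKO library (−5.40 and −5.67). These 4 genes had the Eomes pattern, with a rise in WT and no called change in S23DKO.

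Chml and Atp7a had another shape. Chml, a Rab escort protein, was at 0.191 and 0.366 CPM at WT day 0, 40.6 and 23.3 CPM at WT day 4, and 25.5, 19.9, 29.2 and 30.2 CPM in S23DKO (−6.43 ± 0.54, adjusted p = 0.00327). Atp7a, a copper transporter, was at 0.191 and 0.409 CPM, then 27.4 and 17.4 CPM, in WT and 11.7 to 26.1 CPM in S23DKO (−5.54 ± 0.60, adjusted p = 0.00595). WT day 0 stood apart from the other 3 groups. Pdpr, a regulator of pyruvate dehydrogenase phosphatase, averaged 2.67 and 42.0 CPM in WT and 43.1 and 43.0 CPM in S23DKO (−3.98). Of the 33 lower genes called in every leave-out fit, 22 had WT day 4 highest and WT day 0 lowest, as Cubn and Dgkk did, and 5 had S23DKO highest and WT day 0 lowest, as Atp7a and Pdpr did. The 22 also hold Chml and genes like it, such as Nr2c2 (means of 1.89 and 48.3 CPM in WT and 25.0 and 43.7 CPM in S23DKO). Ranking the groups in this way therefore does not separate the shape of Chml from that of Dgkk. WT day 4 was highest in 74.6% of all lower calls and 27.3% of all genes tested, and WT day 0 lowest in 78.7% and 36.6%. The genes were picked on the same contrast, so these shapes are a description.

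Dgkk, Alox15, Chml, Atp7a and Pdpr kept their calls in all 8 fits. Magel2 and Irs4 lost theirs without WT day 0 replicate 1 (0.0557 and 0.0661), and Tmprss2, a membrane serine protease (−5.33 ± 1.01), was called in 3 fits. Nostrin, a regulator of nitric oxide synthase traffic, did not meet the count condition, with no counts at WT day 0, and averaged 7.33 CPM at WT day 4 and 2.38 and 4.67 CPM in S23DKO (adjusted p = 0.00595). Others of the 45 genes held throughout, named here after their values were seen, were Wnt8a, a Wnt ligand of the streak (means of 0.239 and 33.2 CPM in WT and 0.579 and 3.22 CPM in S23DKO), Prickle1, a planar polarity gene (4.40 and 81.2 CPM, and 7.05 and 14.4 CPM), and Srgn, a proteoglycan of secretory granules (1.04 and 55.8 CPM, and 5.76 and 19.1 CPM). All 3 rose in WT to a level above S23DKO at day 4.

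Among the higher calls, Lgals3, which encodes the lectin galectin-3, fell from 54.8 and 45.8 CPM to 4.00 and 5.49 CPM in WT and was at 70.7 and 106 CPM, then 135 and 157 CPM, in S23DKO (4.13 ± 0.40, adjusted p = 0.00497). S100a6, a calcium-binding protein, fell from 95.1 and 68.0 CPM to 7.83 and 9.15 CPM in WT and was at 20.4 and 38.6 CPM, then 54.4 and 67.6 CPM, in S23DKO (4.31 ± 0.48, adjusted p = 0.00595). The S23DKO changes of Lgals3 and S100a6 alone were not called (adjusted p = 0.126 and 0.0821). Calml4, a calmodulin-like gene, fell in both genotypes, from 39.5 and 27.4 CPM to 0.532 and 0.343 CPM in WT and from 13.4 and 19.6 CPM to 5.17 and 6.30 CPM in S23DKO (4.72 ± 0.49, adjusted p = 0.00595). In all 3 genes WT day 4 was the lowest group and did not overlap any other.

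Ocel1 rose in S23DKO, with a WT change that was not called. It was at 17.1 and 16.96 CPM, then 7.75 and 14.2 CPM, in WT and rose from 2.02 and 1.71 CPM to 15.7 and 20.3 CPM in S23DKO (3.90 ± 0.48, adjusted p = 0.00679). Only S23DKO day 0 was low for Ocel1 among these groups. Gjb5, a connexin of trophectoderm and other epithelia, fell from a mean of 24.3 to 4.06 CPM in WT and averaged 58.3 and 108 CPM in S23DKO (3.46). Sgk2, a kinase related to Akt, was at 2.89 and 3.16 CPM, then 0.348 and 0.133 CPM, in WT and 7.12 and 6.69 CPM, then 11.9 and 14.7 CPM, in S23DKO (4.58 ± 0.56, adjusted p = 0.00679). Lgals3, S100a6, Calml4, Ocel1, Gjb5 and Sgk2 kept their calls in all 8 fits.

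Imprinted genes, expressed from 1 parental allele, had 3 lower calls and 1 higher among 22 (median −0.50). Grb10, an adaptor that restrains insulin and growth factor signals, was at 145 and 164 CPM, then 257 and 235 CPM, in WT and 57.9 and 37.1 CPM, then 15.3 and 17.3 CPM, in S23DKO (−2.21 ± 0.35, adjusted p = 0.0131), and was 1 of the 36 genes with opposite called changes. H19, Igf2 and Peg10 were far higher in S23DKO than in WT at both days, with interactions that were not called: H19 averaged 15.0 and 91.6 CPM in WT and 2193 and 7946 CPM in S23DKO (−0.75 ± 0.31). The Grb10 call was lost without either WT day 0 library (0.0914 and 0.0536) or either S23DKO day 4 library (0.0764 and 0.064).

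The 30 cytosolic ribosomal protein genes all fell in WT, and their interactions were all above 0 (median 1.20), with 5 called higher. Rps19, a small-subunit protein, was at 2238 and 1295 CPM, then 542 and 766 CPM, in WT and 686, 712, 750 and 749 CPM in S23DKO (1.53 ± 0.40, adjusted p = 0.048). WT day 0 was the high group, as in the library shares given above, and its replicates differed more than those of S23DKO. The genes are short (median exon length 1.75 kb) and have many processed copies. In 6 of the 8 fits without 1 library no ribosomal protein gene was called (Rps19 0.196 without WT day 0 replicate 1), and with the length and GC correction 2 were called higher. DESeq2 called 16 higher, and edgeR without WT day 4 replicate 2 called 17.

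Other lists were close to the background or had few calls. Cell cycle genes had 2 lower calls among 18, Bub1 and Mcm4, hypoxia and glycolysis genes 1 higher among 20, the growth factor Vegfa (1.47 ± 0.36), and LIF and STAT3 target genes 1 higher among 12, the feedback inhibitor Socs3 (2.67 ± 0.59). Snai2, an epithelial to mesenchymal transition factor, had a higher call (2.71 ± 0.72) that was kept in 0 of the 8 leave-out fits (adjusted p up to 0.209). Among the 2-cell embryo genes, which mark a rare ES cell state, edgeR called 0 of 12, with 7 lower at an unadjusted p below 0.05 and 3 lower by DESeq2. All 12 had a negative estimate, and Zscan4f, a multi-copy gene of that state, was at 7.95 and 7.90 CPM, then 20.6 and 14.7 CPM, in WT and 41.6 and 17.3 CPM, then 9.31 and 17.5 CPM, in S23DKO (−2.29 ± 0.62, adjusted p = 0.053). Germ cell, p53 target, Hox and fibroblast genes had 0 edgeR calls each among 14, 14, 11 and 10, with 4, 6, 1 and 1 at an unadjusted p below 0.05 in either direction and 1, 7, 0 and 0 by DESeq2.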

How the data were processed

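RNA-seq libraries were made from 500 ng of total RNA with a RIN above 9.5, per the labels' protocols. The whole-number counts per gene and the FPKM values that the authors deposited were used. The submitters' processing notes name Cufflinks, StringTie and DESeq2, without version or role, and mm10 as build; aligner, annotation and strand setting are not given in the sources used here. Counts of the 8 libraries were fitted with 1 coefficient per group in edgeR 4.0.16 (R 4.3.3; TMM, filterByExpr, quasi-likelihood F test), with Benjamini-Hochberg adjustment over 18383 genes and calls at an adjusted p below 0.05. Errors after ± are SEs of log2 estimates. The precision is set by 2 libraries per group, and by counting error only where an interval is given. The fit was also run on simulated counts with its own fitted dispersion and a known interaction in some genes. Those counts held no effect of length or of single libraries, so that run says nothing about either.

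The named genes were the 12 called genes with the largest estimates in each direction that passed level and overlap conditions (at least 10 counts in each group, at least 5 CPM in the highest group, no overlap between the day differences of the genotypes), up to 6 in each direction with under 10 counts in a group, and up to 4 members of each of 28 lists. The lists and the comparison were chosen with earlier results of these data known, and other list members named were chosen after their values were seen. Symbols, positions and exon lengths came from GENCODE M21 (32235 of 32285 IDs matched).

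Alternatives were RLE scaling, other filters, DESeq2 1.42.0, all 12 libraries, a replicate block, limma 3.58.1 on log2(FPKM + 1) or log2(FPKM + 0.1), an absolute log2 estimate of at least 1, length and GC offsets (splines with 5 degrees of freedom), and leaving out each library, where the lone library of a group is assumed to vary like the others. Some genes that the naming rule picked are not reported here. The Smad4 knockout libraries entered only the fit of all 12.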

Additional observations from a re-analysis of the deposited data

Results flagged for a closer look

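Each gene here showed a difference between the genotypes in the change over 4 days, picked out because the interaction itself passed edgeR's quasi-likelihood test at a Benjamini-Hochberg adjusted p below 0.05. The comparison as a whole gave 505 higher and 1109 lower genes. Values are log2 interaction estimates, negative where the change was lower in S23DKO.

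Genes with no counts at WT day 0 are given as bounds, with the group set to 3 counts in all, and these were −10.09 for Lhx1, −7.48 for Foxa2 and −7.27 for Evx1. Further genes from the primitive streak, Nodal target and Wnt target lists were at −8.19 for Mixl1, −7.27 for T, −5.86 for Fgf8, −5.79 for Eomes, −5.22 for Gsc, −4.56 for Dkk1, −4.07 for Wnt3, −3.24 for Fst and −2.20 for Skil. The feedback inhibitor Lefty1 was at 4.78 as a higher call. Endoderm and basement membrane genes were at −6.47 for Cubn, −5.62 for Apob, −5.04 for Foxa1, −4.51 for Gata6, −4.48 for Foxq1 and −2.54 for Col4a1. Genes from the mesoderm, vessel and epithelial to mesenchymal transition lists, the last of which holds epithelial genes such as Ocln, were at −5.88 for Rspo3, −5.22 for Cdh11, −4.39 for Pcdh8, −4.37 for Pdgfra, 3.49 for Tie1, −3.32 for Lmo2, 2.71 for Snai2, −2.56 for Kdr and −2.41 for Ocln.

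In the pathway itself the estimates were −3.87 for Bmp2, −3.61 for Tgfbr3, −3.16 for Msx1, 2.83 for Bmp8b, −1.74 for Msx2, 1.70 for Drap1, −1.61 for Trim33, −1.49 for Tgfbr1, −1.48 for Smad1 and −1.46 for Acvr1. Pluripotency and epiblast genes were at −4.10 for Fgf5, −3.99 for Cdh2, −3.14 for Zic2, −2.82 for Sox3, −2.36 for Rif1, −1.47 for Zfp281, 1.36 for Dppa3 and −1.32 for Nanog, and neural genes at 3.25 for Tubb3 and −1.30 for Nes. Trophoblast genes were at 3.78 for Rhox9, 3.19 for Rhox6, 2.93 for Gata2 and 2.44 for Krt7. Imprinted genes were at −2.21 for Grb10, −2.21 for Igf2r, 2.11 for Cdkn1c and −1.88 for Rian. Ribosomal protein genes were at 1.79 for Rpl13, 1.55 for Rps16 and 1.53 for Rps19. Cell cycle, hypoxia and LIF target genes were at 2.67 for Socs3, 1.47 for Vegfa, −1.27 for Bub1 and −1.16 for Mcm4. Several genes of this paragraph were not called by edgeR with the length and GC correction. They were Rian (−0.32, adjusted p = 0.579), Cdkn1c (1.05, 0.0752) and Tgfbr1 (−0.60, 0.133). The others, by adjusted p, were Drap1 (0.333), Rps16 (0.111), Trim33 (0.0998), Zfp281 (0.0657), Mcm4 (0.0632), Tubb3 (0.0605) and Dppa3 (0.0504).

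Outside the lists, among genes with at least 10 counts in every group and at least 5 CPM in the highest, lower calls with large estimates were −6.43 for Chml, −6.02 for Dgkk, −5.67 for Magel2, −5.54 for Atp7a, −5.52 for Alox15, −5.40 for Irs4 and −5.33 for Tmprss2, and higher calls were 4.72 for Calml4, 4.58 for Sgk2, 4.39 for Tfeb, 4.31 for S100a6, 4.19 for Myl4, 4.13 for Lgals3, 3.95 for Fam25c, 3.93 for Gja4, 3.93 for Gadd45g, 3.90 for Ocel1 and 3.87 for Nol3.

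The remaining genes had few counts in at least 1 group. Frzb, a secreted Wnt inhibitor, was at −5.70 and its WT ratio of 591 (163 to 4888, counting interval at 95%) rests on 2 counts at day 0. Zbed6, which lies within an intron of another gene, was at −6.06 with a WT ratio of 147 (40.5 to 1221). It was not called by edgeR with the length and GC correction (adjusted p = 0.0848). Igf2os, antisense to Igf2, was at −2.24, and with the strand setting not given its reads cannot be told apart from those of Igf2. Dnajc5g was at 4.94 with a WT ratio of 0.0150 (0.00306 to 0.0446). Rarres2, which encodes the chemoattractant chemerin, was at 9.31, with 11.6 and 1.12 CPM at WT day 0, 0.0550 and 0.0572 CPM at WT day 4, 0.253 and 1.15 CPM at S23DKO day 0 and 5.52 and 2.64 CPM at S23DKO day 4.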

How the results depend on the processing

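Apart from leaving out a library, the counts of called genes moved by more than 1.5 times in 4 settings. DESeq2 called 1348 higher and 1829 lower interactions and 2508 S23DKO changes. The length and GC correction gave 1097 higher interactions and 3768 S23DKO changes, and no filter gave 857 higher. The replicate block gave 211 higher and 517 lower. The differences between replicates 1 and 2 were nearly uncorrelated between groups (r from −0.149 to 0.0724, with 0.0461 between the WT days and 0.0724 between the S23DKO days). A correlation over all genes cannot tell whether libraries with the same number shared a culture or preparation. The labels do not say whether they did. Leaving out 1 library gave 12 to 2396 higher and 39 to 2556 lower interactions, 3794 to 9289 WT changes and 88 to 2428 S23DKO changes. RLE scaling, a filter of 1 CPM in 2 libraries, all 12 libraries and limma on FPKM kept all 4 counts within 1.5 times. So did an absolute log2 estimate of at least 1, which every called interaction already had, so it could not change the interaction counts. Of the 89 named genes called, 87 were kept with RLE scaling, 88 with DESeq2, 76 with the length and GC correction, 59 with the replicate block and 16 without WT day 0 replicate 1. The estimate changed sign for Igf2os (1.12) and Zbed6 (0.0471) with limma on log2(FPKM + 1), whether or not low values were filtered. For the Fgf5 interaction, leaving out 1 library gave −5.07 to 2.68, with the positive value without S23DKO day 0 replicate 1; the cause was not tested for Igf2os and Zbed6, and Fgf5 is left without counts at S23DKO day 0.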
